A study of Rattus norvegicus with 2 samples.

Results

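The miRNAs described here are a group of 6 whose genes lie at or beside Rtl1 in the imprinted Dlk1 to Dio3 domain of the rat genome. They were taken by probe name, as rno-miR-127, rno-miR-136, rno-miR-337, rno-miR-431, rno-miR-433 and rno-miR-434, out of 349 rat miRNA probes on the array. The rule itself used no measured value, but earlier results of these data were known when it was made. Small RNA from the nucleus accumbens (NAc), core and shell together, was labelled with Cy3 and hybridized to arrays of 1 colour. The animals were adult male Sprague-Dawley rats of 150 to 180 g, 18 in all, given for 7 days either vehicle, which was 500 µl of saline ip bid, or alcohol at 1 g/kg ip bid. There was 1 array for vehicle and 1 for alcohol. How the RNA of several rats was combined is not stated, so every SD below is over the 9 repeat spots of a probe and measures error within an array. Without replicate arrays no p-value can be given, and treatment and array cannot be told apart.

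An imprinted gene is read from only one parental copy. In this domain the paternal copy gives the protein-coding genes Dlk1 and Rtl1, the latter derived from a retrotransposon, and the maternal copy gives long non-coding RNAs such as Meg3 and many miRNAs. The miRNAs opposite Rtl1 are known for being cut from a transcript antisense to it. They can therefore pair with the Rtl1 message without mismatch and direct its cleavage, besides acting on other messages through the seed (bases 2 to 8), as miRNAs usually do. The domain is known for its expression in brain.

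The target sequences listed for the probes are given first because they fix which strand of each hairpin was measured, and the capitals mark the seed.
miR-127: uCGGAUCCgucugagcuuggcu
miR-136: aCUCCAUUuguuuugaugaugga
miR-337: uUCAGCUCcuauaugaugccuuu
miR-431: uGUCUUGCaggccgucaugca
miR-433: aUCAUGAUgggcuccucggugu
miR-434: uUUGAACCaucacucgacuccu

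All 6 sequences were found without mismatch in a RefSeq hairpin of the rat assembly GRCr8, each in 1 hairpin only and on the plus strand of chromosome 6. The files name no genome build, so the positions are those of this match. In order they were miR-337 at chr6:134321201-134321223, miR-431 at chr6:134326468-134326488, miR-433 at chr6:134327421-134327442, miR-127 at chr6:134328510-134328531, miR-434 at chr6:134330451-134330472 and miR-136 at chr6:134331349-134331371. Of the 6 hairpins, 5 lie within the interval that RefSeq gives for Rtl1. The hairpin of miR-337 does not and comes before it, on the side of Meg3, so for miR-337 the label antisense to Rtl1 does not hold in this annotation. RefSeq names 5 of the sequences as mature miRNAs, miR-127-3p, miR-337-3p, miR-431, miR-433-3p and miR-434-3p, and that of miR-136 is not among its mature entries.

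The group shares a place in the genome and no common seed. The 6 seeds were all different, with 3 to 7 mismatches over the 15 pairs, and no other probe of the array had any of them. Over the whole length, no probe came closer to a member than an edit distance of 7, between miR-136 and miR-880. Of the measured strands, 4 came from the 3' arm of the hairpin and 2, those of miR-136 and miR-431, from the 5' arm. Their GC content ran from 34.8% in miR-136 to 59.1% in miR-127, with a median of 50% against 47.6% for all 349 probes. The hairpins of miR-433 and miR-434 are shown for the position of the measured strand, in capitals, since these miRNAs are compared below. In that of miR-434 the first 8 bases of the mature sequence occur 3 times, and none of the other RefSeq hairpins, 419 in all with this one, holds them.
Mir433 hairpin: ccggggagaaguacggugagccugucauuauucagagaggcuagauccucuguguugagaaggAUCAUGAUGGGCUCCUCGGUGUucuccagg
Mir434 hairpin: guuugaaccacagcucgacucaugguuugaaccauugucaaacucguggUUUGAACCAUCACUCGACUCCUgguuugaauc

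The arrays differed in brightness and in background, which bears on every ratio below. Detection was set against 88 control spots that carry mismatches. Their median plus 3 scaled median absolute deviations gave a threshold of 278 for vehicle and 179 for alcohol, in units of raw density, which 5 or more of the 9 spots of a miRNA had to pass. By this rule 151 of the 349 miRNAs were detected on the vehicle array, 196 on the alcohol array and 150 on both. These 150 had a median raw density of 952 with vehicle and 1951 with alcohol. The tissue label was checked with miRNAs of known origin. All 4 brain miRNAs (miR-9, miR-124, miR-128 and miR-138) were detected on both arrays, with median raw densities of 3242 to 37278 on the vehicle and 4032 to 27162 on the alcohol array. The erythroid miR-451 and the leukocyte miRNAs miR-223 and miR-142-3p were detected on neither. Of the muscle miRNAs miR-1, miR-133a and miR-206, miR-133a passed on the vehicle array alone, with 5 of 9 spots. The liver miRNA miR-122 was detected on both, with median raw densities of 602 for vehicle and 288 for alcohol. What part RNA of other tissues has in these values was not tested.

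The group fell into bright and dim probes. In NAc, miR-127, miR-433 and miR-434 were bright on both arrays, miR-431 was dim but detected on both, miR-337 was detected on the alcohol array alone and miR-136 on neither. This gives 4 of 6 detected on the vehicle and 5 of 6 on the alcohol array, where 43.3% and 56.2% of all 349 probes were detected. Brightness also depends on the probe, so the order of the miRNAs is one of signal and not of molecules.

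**Figure D1:**
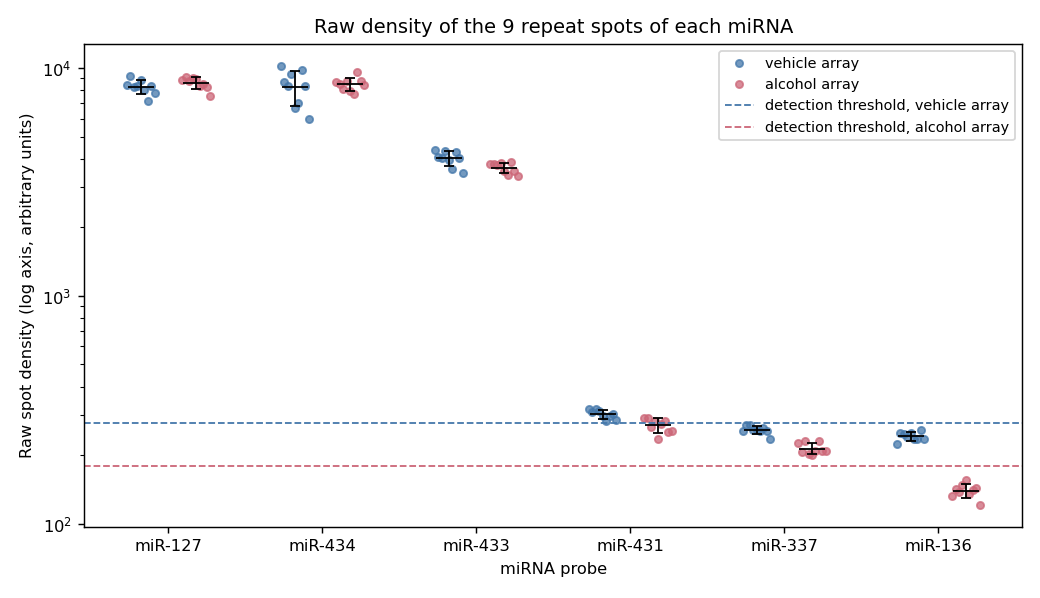
Raw density of each of the 9 repeat spots (log axis, arbitrary units) for the 6 miRNAs on the vehicle and the alcohol array, with the mean and SD over spots in black and the detection threshold of each array as a dashed line. The spots of miR-127, miR-434 and miR-433 lie far above both thresholds. Those of miR-431 lie above the threshold of their own array, and those of miR-136 below it.

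miR-127, known for its complementarity to Rtl1 and for repressing Bcl6, had raw densities of 7152 at the lowest spot, 8316 at the median and 9187 at the highest on the vehicle array. On the alcohol array the corresponding values were 7547, 8775 and 9124. The spots of the arrays overlapped almost completely. After background correction and cyclic loess, which removes the signal-dependent difference between the arrays, its signal was 8529 on the vehicle and 8099 on the alcohol array, ranks 21 and 25 among the 349 probes. The log2 ratio of alcohol over vehicle was -0.07 ± 0.09 (SD over 9 spots), smaller than the spread between spots. Its direction was not fixed, being below 0 in 12 of the 17 other settings, with values from -1.14 to 0.37.

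miR-434, whose gene follows that of miR-127, had raw densities of 5974, 8344 and 10214 on the vehicle and 7663, 8476 and 9602 on the alcohol array, as lowest, median and highest spot. The alcohol spots lay inside the range of the vehicle spots. Its normalized signal was 8463 on the vehicle and 7987 on the alcohol array, ranks 22 and 26, next to miR-127 on both. The log2 ratio was -0.08 ± 0.22 (SD over 9 spots), also within the spread between spots, and lay below 0 in 13 of the 17 other settings, with values from -1.15 to 0.37.

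miR-433, studied as a regulator of Fgf20, had the ratio farthest from 0 among the 4 members detected on both arrays after cyclic loess, while miR-431 lay farther from 0 without normalization, with scaling to 5S rRNA or calibration spikes and with the mismatched control baseline. Its raw densities were 3477, 4013 and 4358 on the vehicle and 3375, 3736 and 3887 on the alcohol array, as lowest, median and highest spot. The ranges overlapped, although 7 of the 9 vehicle spots exceeded every alcohol spot. The normalized signal went from 4590 on the vehicle array to 3019 on the alcohol array, or 65.8% of vehicle. As a log2 ratio this was -0.60 ± 0.05, the SD being over 9 spots before normalization between the arrays. Most of this size came with the normalization between the arrays. Without normalization the log2 ratio was -0.12, and with scaling to the 5S rRNA probes it turned to 0.18. miR-433 is among the miRNAs that the study listed as lower after alcohol on these same arrays, so the direction here is not independent evidence of it.

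To be called, a miRNA had to pass detection on 1 array or both, reach a normalized signal of 400 on the brighter of them and differ by 1.3-fold or more. Of the 6 miRNAs, 3 passed the filters on detection and signal, namely miR-127, miR-433 and miR-434. By this rule 0 of the 3 were higher and 1, miR-433, was lower on the alcohol array. Over the whole array 125 miRNAs passed the same filters, of which 26.4% were called higher and 20.8% lower. With 3 miRNAs, a count of 1 beside 20.8% shows nothing particular to the group. Without normalization between the arrays the whole-array counts of 33 higher and 26 lower became 85 and 8, and the call of miR-433 was lost. Over the 4 members detected on both arrays the median log2 ratio was -0.26, with a range of -0.60 to -0.07, beside -0.07 for the 150 miRNAs so detected. Without normalization these medians were 0.07 and 0.57. Over all 6, with the undetected ones at their fitted values, the median was -0.08, beside 0.0067 for all 349 probes.

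**Figure D2:**
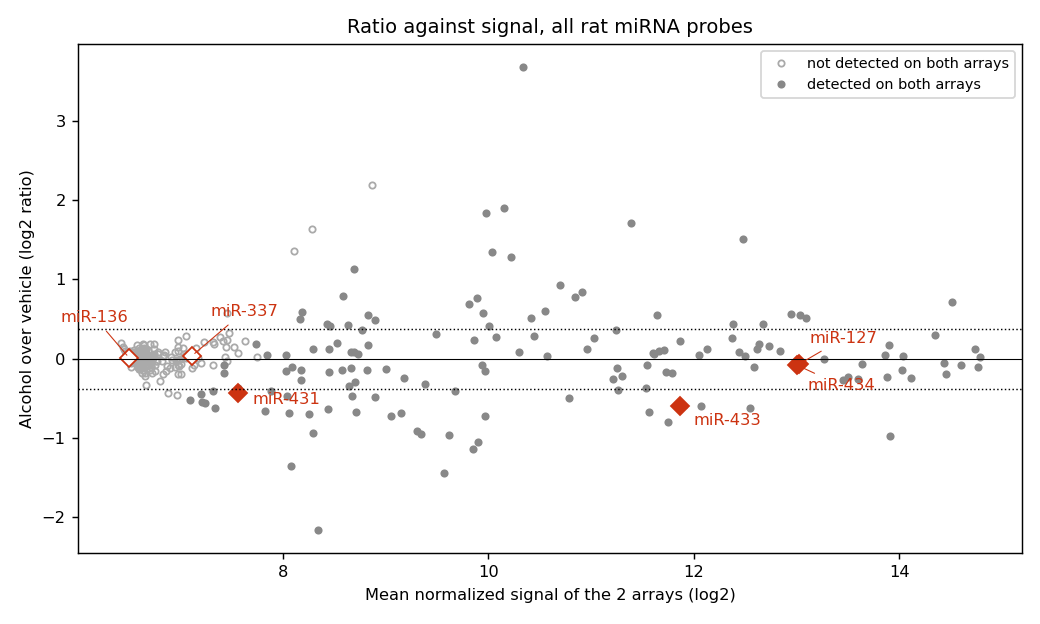
Log2 ratio of alcohol over vehicle against the mean normalized log2 signal of both arrays for all 349 miRNA probes, with the 6 miRNAs as red diamonds, open where not detected on both arrays, and dotted lines at 1.3-fold. miR-127 and miR-434 sit on the zero line at high signal, and miR-433 lies below it at a log2 ratio of -0.60.

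Setting the bright members against each other takes out any constant difference between the arrays. It does not take out one that depends on signal. After cyclic loess the log2 ratio of miR-433 was lower than that of miR-127 by a difference of -0.53 ± 0.12 (SD over 9 spots). Against miR-434 the difference was -0.52 ± 0.19. Of the 17 other settings, 5 (no normalization and the 4 constant scalings) shift all miRNAs alike. By construction these give the same differences, -0.19 against miR-127 and -0.18 against miR-434. Most of the size of -0.53 and -0.52 thus came with cyclic loess, which shifts miRNAs by their signal. The SDs over spots of 0.12 and 0.19 are of single spots and hold no error between arrays. In the other 12 settings the differences ran from -0.64 to -0.31 and from -0.64 to -0.32. The ratio of miR-434 differed from that of miR-127 by -0.0088 ± 0.28 (SD over 9 spots). Within the 150 miRNAs detected on both arrays, miR-433 ranked 24 from the lowest ratio, and 15 to 30 over all settings. miR-127 ranked 75 and miR-434 ranked 72, and without normalization they ranked 40 and 38.

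**Figure D3:**
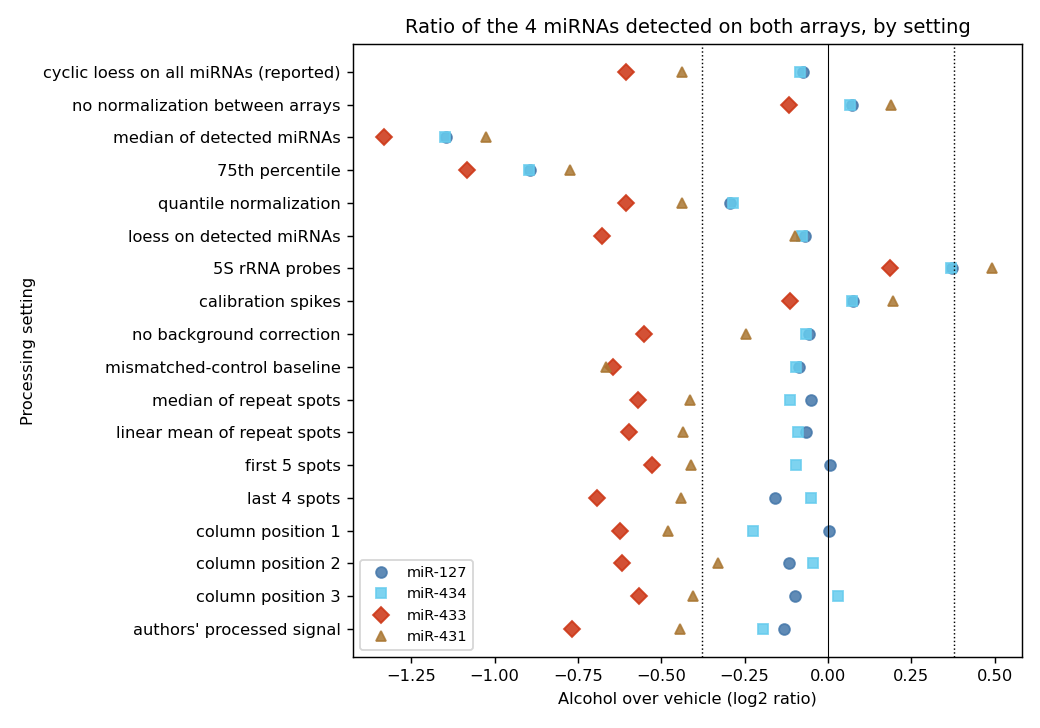
Log2 ratio of alcohol over vehicle for the 4 miRNAs detected on both arrays under the reported setting and the 17 others, with dotted lines at 1.3-fold. miR-433 stays to the left of miR-127 and miR-434 in each row, while the place of all of them against 0 moves with the scaling.

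The place of a spot on the array moved with its brightness. Each probe had 3 spots spaced along each of 3 rows, and the last of the 3 was dimmer than the first for 108 of the 150 miRNAs on the vehicle and 149 on the alcohol array. For miR-434 the last of the 3 column positions held 72.4% of the density of the first on the vehicle and 89.7% on the alcohol array. For miR-433 these shares were 85.6% and 91.2%, and for miR-127 they were 100.3% and 93.3%. The median over the 150 miRNAs was 95.1% on the vehicle and 92.7% on the alcohol array. Within each column position, processed by itself, the log2 ratio of miR-433 was -0.63, -0.62 and -0.57. That of miR-434 was -0.23, -0.05 and 0.03 from the first to the last position, and that of miR-127 was 0.0020, -0.12 and -0.10. After cyclic loess, run anew at each position, the ratio of miR-433 was thus about as large at every position. Those of miR-434 and miR-127 lay near 0 or changed sign. Most of the size of the miR-433 ratio came with that normalization, so its likeness over the positions is not separate evidence. Its mean raw density went from 4328 on the vehicle to 3834 on the alcohol array at the first position. At the second it went from 4010 to 3607, and at the last from 3703 to 3496.

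miR-431, studied as a regulator of Kremen1 in the regrowth of axons, was close to background. Its raw densities were 282, 303 and 318 on the vehicle and 235, 273 and 292 on the alcohol array, as lowest, median and highest spot, and all 9 spots passed the threshold on each. The ranges overlapped, with 7 vehicle spots above every alcohol spot, but the background was also lower on the alcohol array. Above the median of the mismatched controls, miR-431 stood by 61.4 on the vehicle and by 125 on the alcohol array. The normalized signal was 220 and 162, under the limit of 400. The log2 ratio was -0.44 ± 0.14 (SD over 9 spots) after cyclic loess and 0.19 without normalization. It was below 0 in 14 of the 17 other settings, and no call was made.

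miR-337 had raw densities of 237, 258 and 271 on the vehicle array, all below the threshold (0 of 9 spots above), and of 200, 208 and 231 on the alcohol array, where 9 of 9 passed. The normalized signals after cyclic loess were 137 for vehicle and 140 for alcohol. No fold is given, since the vehicle value was not above the detection threshold and the sign of the difference was not fixed. The log2 ratio was below 0 in 3 of the 17 other settings.

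miR-136 had raw densities of 224, 239 and 258 on the vehicle and of 121, 140 and 156 on the alcohol array, with 0 of 9 spots past the threshold on each. The spots did not overlap, and neither did the backgrounds, whose mismatched-control medians were 241 and 145. No fold is given for it. The opposite strand of the same hairpin, miR-136*, was the only other arm of the 6 hairpins with a probe of its own. RefSeq lists it as miR-136-3p. It also had 0 of 9 spots past the threshold on either array, with median raw densities of 237 for vehicle and 171 for alcohol. Both measured strands are in capitals in the hairpin.
Mir136 hairpin: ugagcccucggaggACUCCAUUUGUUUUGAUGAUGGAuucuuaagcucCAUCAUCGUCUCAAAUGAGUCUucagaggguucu
Neither strand was thus detected in NAc against the mismatched controls, although the hairpin lies within the same interval as those of the 3 bright miRNAs. This depends on the rule. With the mean of the empty spots plus 3 SD, the vehicle threshold was 234. The vehicle medians of both strands, 239 and 237, lay above it.

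The miRNAs with the most similar pair of signals were looked up among the other 149 detected on both arrays, by the distance between their normalized log2 signals over the 2 arrays. The nearest to miR-127 was miR-434, at 0.023, followed by miR-191 at 0.28. The nearest to miR-434 was miR-127, followed by miR-191 at 0.27. The nearest to miR-433 was miR-382, from the same imprinted domain, at 0.0080, followed by miR-92b at 0.21. The signals of miR-382 were 4614 on the vehicle and 3023 on the alcohol array, with a log2 ratio of -0.61. The nearest to miR-431 were miR-345-5p at 0.047 and miR-505 at 0.26. A likeness over 2 arrays says only that these probes read alike there.

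Other miRNAs of the domain were set beside the group by fixed lists. The miRNAs listed as flanking it (miR-770, miR-673, miR-493, miR-540, miR-341 and miR-370) were mostly dim, with 1 of 6 probes detected on both arrays. This was miR-370, whose log2 ratio was -0.62 ± 0.14 (SD over 9 spots) after cyclic loess and 0.06 when scaled to 5S rRNA. The target of miR-540 was not placed on a hairpin, so its position was not checked. The more distant cluster from miR-379 to miR-410 had 36 probes, of which 22 were detected on both arrays. Of the 17 that passed the filters, 4 were called higher and 4 lower. This split moved with the scaling. It became 13 higher and 1 lower of 18 without normalization, and 2 higher and 9 lower of 16 with median scaling. The whole-array counts of 33 higher and 26 lower moved the same way, to 85 and 8 and to 17 and 79. The move with the scaling was thus not particular to the cluster. Over the miRNAs detected on both arrays, the median log2 ratio was 0.05 for the 22 of the cluster and -0.26 for the 4 of the group after cyclic loess, and 0.82 and 0.07 without normalization. Over all probes, detected or not, it was 0.06 for the cluster, -0.09 for the flanking probes and -0.08 for the group.

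All 150 miRNAs detected on both arrays had log2 ratios from -2.16 to 3.67. The cluster spread further in both directions than the group did, but it had 22 such probes beside 4, and a range widens with their number. Its lowest ratios among the miRNAs detected on both arrays were those of miR-134 (-1.44 ± 0.10), miR-485 (-1.05 ± 0.11) and miR-382 (-0.61 ± 0.05), and its highest those of miR-376b-3p (0.77 ± 0.45), miR-154 (0.49 ± 0.26) and miR-543* (0.41 ± 0.24), with SDs over 9 spots. With scaling to 5S rRNA miR-485 and miR-382 turned to 0.22 and 0.18, and the other 4 kept their sign in all 17 other settings. In the group, miR-433 and miR-127 were neighbours with log2 ratios of -0.60 and -0.07.

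**Figure D4:**
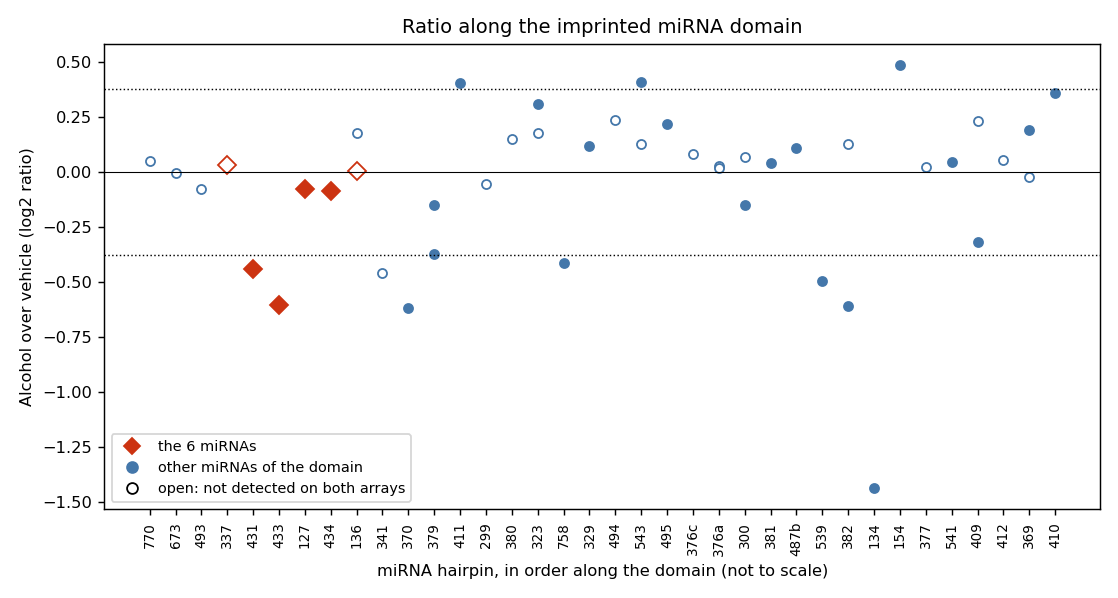
Log2 ratio of alcohol over vehicle for the probes of the domain placed on a RefSeq hairpin, in the order of the hairpins along the chromosome (evenly spaced, not to scale), with open symbols where a miRNA was not detected on both arrays. The 6 miRNAs lie between -0.60 and 0.03, and the cluster to their right spreads from -1.44 to 0.49. miR-485, miR-376b-3p, miR-376b-5p and miR-540 were not placed on a hairpin and are not drawn.

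GC content differed with the direction of the calls on the whole array. The 33 miRNAs called higher had a median GC content of 43.5% and the 26 called lower had 52.4%. miR-433, the member called lower, had 54.5%, while miR-127, which was not called, had 59.1% and miR-434 had 45.5%. The part of GC content in the ratio of miR-433 was not tested. In such tissue RNA, fewer cells that make a miRNA and less of it per cell cannot be told apart.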

How the data were processed

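The 6 miRNAs and all lists were chosen with earlier results of these data known. The authors deposited the intensity of each spot as its mean density, with no background removed. They also deposited a processed intensity per probe, made by background subtraction, averaging of spots and a cyclic normalization between arrays, whose tool and settings are not given in the sources used here. The processed values served as an alternative only.

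From the raw intensities, the normexp correction of limma 3.58.1 (R 4.3.3) was applied to all 3968 spots with an offset of 50. Values were log2-transformed and averaged over 9 spots. Cyclic loess over the 349 miRNA probes then used a span of 0.7 and 3 iterations. Each ratio sets alcohol over vehicle, and its SD is taken over the differences between spots at the same place. These differences are those after background correction and before normalization between the arrays, which was done on probe means. With 1 array per group no test was made, and precision is limited by the number of arrays. The call rule is given with the results. All 6 miRNAs are named. Of the domain lists, the 3 highest and the 3 lowest ratios among miRNAs detected on both arrays, together with the flanking miRNA detected on both, are named. miR-128 was used for miR-128a, the name in the list.

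In all, 17 other settings were run, of which 3, the single column positions, were added after the values had been seen. Differences between the ratios of 2 members and the unscaled deviation for detection were also added then. Sequences and gene order came from RefSeq (GRCr8), which lists the target of 45 of 49 domain probes in a hairpin of chromosome 6. Background correction, normalization and the call rule were tested on simulated arrays in R. There the difference in brightness rose smoothly with signal, and as many miRNAs were raised as lowered. The real arrays need not differ in that way, so the simulation cannot show that cyclic loess suits them. Ranks, lists and differences were computed in Python 3.11.15, without such a test.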

Additional observations from a re-analysis of the deposited data

How the results depend on the processing

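No paired analysis was possible because there is only 1 array for each treatment. The median log2 ratio of the 6 miRNAs, -0.08, was 0.068 without normalization, -1.15 with scaling to the median of detected miRNAs, -0.90 with the 75th percentile, -0.29 with quantile normalization, 0.37 with 5S rRNA, 0.073 with calibration spikes and -0.32 in the authors' processed values, and the other 10 settings moved it by less than its SD over spots. The median of all 349 probes was 0.0067, and was -0.22, -1.43, -1.18, -0.0027, 0.09, -0.21 and -0.09 in those same settings. The count of 1 member lower became 3 under median scaling and 3 under the 75th percentile, 0 without normalization, 0 with 5S rRNA, 0 with calibration spikes, 0 at 2-fold, 2 with no filter on detection or signal. The count of 0 higher did not move in the alternatives run. The whole-array counts of 33 higher and 26 lower were 17 and 79 under median scaling, 28 and 60 with the 75th percentile, 100 and 2 with 5S rRNA, 85 and 8 with calibration spikes and 25 and 33 in the authors' values. miR-433, at -0.60, was below 0 in 16 of the 17 other settings, called lower in 14 and reversed to 0.18 with 5S rRNA. Measured from the median of the 150 miRNAs that both arrays detected, it lay at -0.53, and between -0.69 and -0.48 over all settings. The constant scalings move all miRNAs alike. For the others the cause was not tested. miR-127 and miR-434 were called lower under median scaling and the 75th percentile only. The numbers of members detected, 4 and 5, were the same under the 3 other detection rules, with 1 exception. Empty spots plus 3 SD gave 6 on the vehicle array, miR-136 and miR-337 among them.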
